A study of Mus musculus with 4 samples.

Results

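The AP-1 family examined here comprises 8 genes, Fos, Fosb, Fosl1, Fosl2, Jun, Junb, Jund and Atf3. They were taken by symbol from the gene tables, and all 8 were found among the 22609 genes listed. Of these, 7 passed the filter on low counts, with 14978 genes passing in all; Fosl1 did not. RNA came from the hippocampus of ovariectomized C57BL/6 mice with E2 (estradiol) mini pumps. Blood flow to the brain had been stopped for a time (global cerebral ischemia, GCI), and tissue was taken at 24 h of reperfusion. PELP1 FBKO mice (2 libraries), where FBKO is read as a forebrain knockout and PELP1 is a partner protein of estrogen receptors, were compared with FLOXED mice (2 libraries). The sources used here give neither the Cre driver, nor the deleted part of Pelp1, nor the age of the mice. Ischemia, estradiol and ovariectomy were common to both genotypes, so a genotype difference that existed before them cannot be told apart from one that followed them.

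AP-1 is a family of dimeric transcription factors whose subunits carry a basic region that contacts DNA and a leucine zipper that holds the dimer together. Jun proteins can pair with each other or with Fos proteins, Fos proteins need a Jun partner, and Atf3 pairs with Jun proteins or with itself. In the brain, Fos and Fosb are immediate early genes of neuronal activation, Jun is an effector of the JNK stress kinases, and Atf3 is switched on in injured neurons and other stressed cells.

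Libraries held between 17524594 and 22447658 reads assigned to genes. Levels are given in CPM, counts scaled to library size with TMM, which corrects for library composition. At this depth 3 reads correspond to between 0.136 and 0.171 CPM, which counts sampling error only. The targeted gene Pelp1 was at 18.0 and 17.3 CPM in PELP1 FBKO, against 26.7 and 26.3 CPM in FLOXED. It was lower in both knockout libraries but missed the threshold (log2 fold change -0.59, SE 0.149, edgeR adjusted p = 0.130). The labels do not tie the libraries to animals, so the spread behind each p-value is that between libraries and may be technical. Beside the AP-1 values, summed levels of markers of several cell types differed between the genotypes, although edgeR called 0 of these markers. DESeq2 called 8 oligodendrocyte, 2 astrocyte and 2 microglial markers higher and 5 CA1 pyramidal cell markers lower, against 3.08% of all genes tested. It also called 2 dentate granule cell, 2 meningeal fibroblast, 1 endothelial and 1 infiltrating leukocyte marker higher. Of the neuronal and choroid plexus markers it called 0. The summed level of 8 oligodendrocyte markers was 5801 and 6222 CPM in PELP1 FBKO, against 2904 and 3702 CPM in FLOXED. For 8 astrocyte markers the sums were 7598 and 9548 CPM against 6005 and 6776 CPM, and for 8 CA1 pyramidal cell markers 630 and 567 CPM against 802 and 944 CPM. Of the 8 astrocyte markers, 5 were higher in PELP1 FBKO without overlap, as were 3803 of all 14978 tested genes. In either direction, 48.4% of all tested genes did not overlap. Gfap overlapped, at 1500 and 3882 CPM in PELP1 FBKO and 2382 and 2258 CPM in FLOXED. Sums of 8 microglial markers were 455 and 576 CPM in PELP1 FBKO and 369 and 332 CPM in FLOXED. Every oligodendrocyte, astrocyte, CA1 pyramidal cell and microglial marker had reads in all 4 libraries. The 7 neuronal markers found in the files summed to between 6123 and 7426 CPM. For 8 markers each of dentate granule cells, endothelial cells and meningeal fibroblasts, the sums were also higher in both PELP1 FBKO libraries (437 and 346 CPM against 298 and 324 CPM, 243 and 233 CPM against 141 and 191 CPM, and 177 and 261 CPM against 132 and 163 CPM in FLOXED). Of 8 infiltrating leukocyte markers, Lyz2, which microglia can also express, made up most of the sum, at 14.7 and 27.4 CPM in PELP1 FBKO and 9.92 and 9.37 CPM in FLOXED. The other 7 summed to 1.90 and 2.20 CPM in PELP1 FBKO and 2.05 and 2.26 CPM in FLOXED, and S100a8, Ly6c2, Cd3e and Plac8 had 0 reads in at least 1 library. In bulk RNA, fewer cells of a type and less RNA per cell cannot be told apart, and the part of these markers in the AP-1 results was not tested.

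No AP-1 member passed the threshold between the genotypes. The 3 members with the smallest p were Junb, Jun and Fosl2. In each of them both PELP1 FBKO libraries lay below both FLOXED ones, with fitted levels of 0.724, 0.781 and 0.786 times those of FLOXED. Atf3 had the largest log2 fold change of the 7 tested members, -1.47, and also by far the widest spread within each genotype. By edgeR's quasi-likelihood test with Benjamini-Hochberg adjustment over all genes, 0 of 7 tested members were called, and 0 of 14978 genes (0%) were called. At an unadjusted p under 0.05, 2 of the 7 were lower (Jun and Junb) and 0 higher, where 5.55% of all tested genes were lower, 10.1% higher and 15.6% either. DESeq2, edgeR's exact test and limma-voom also called 0 members, against 3.08%, 5.07% and 0% of all genes tested. The median log2 fold change of the 7 tested members was -0.35, against 0.00016 over all tested genes. Of the 7, 6 were below 0, as were 50.0% of all tested genes. PELP1 FBKO 1 was the lowest library in 5 of the 7 (71.4%), against 26.1% of all tested genes. The members' median was -0.28 without PELP1 FBKO 1 and -0.44 without PELP1 FBKO 2. These counts describe a family chosen with earlier results of these data known and carry no test of the family.

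**Figure D1:**
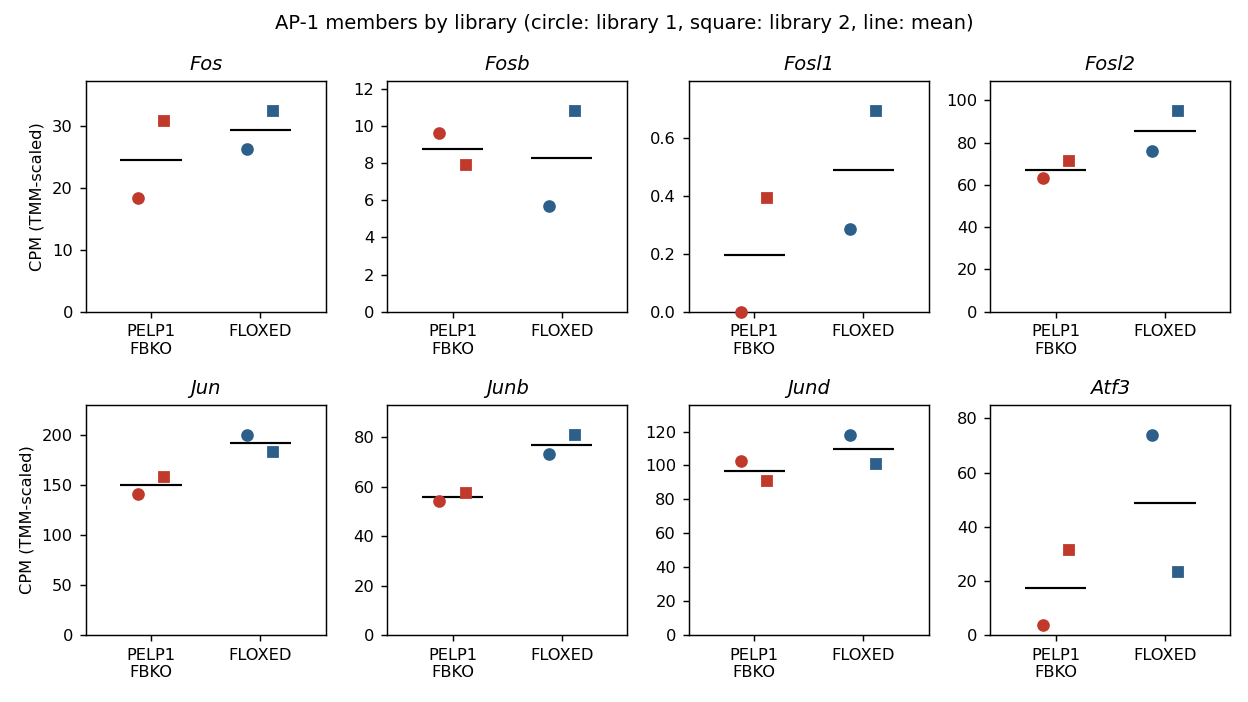
TMM-scaled CPM (vertical axes, each from 0) of the 8 AP-1 members in PELP1 FBKO (red) and FLOXED (blue) libraries, with circles for library 1, squares for library 2 and lines for the mean of 2. Fosl2, Jun and Junb do not overlap between genotypes, while Atf3 lies at 3.72 and 31.5 CPM in PELP1 FBKO and at 73.9 and 23.5 CPM in FLOXED.

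Among the Jun proteins, which form the core of most AP-1 dimers, Junb gave the smallest p. Junb encodes a subunit that is induced early and can hold back Jun on some promoters. Its level was 54.2 and 57.2 CPM in the PELP1 FBKO libraries, from 1196 and 1168 reads, against 72.9 and 80.8 CPM in the FLOXED libraries, from 1279 and 1752 reads. Both knockout libraries lay below both FLOXED libraries, and the gap between genotypes exceeded the difference within either of them. The means were 55.7 ± 2.11 CPM in PELP1 FBKO and 76.9 ± 5.58 CPM in FLOXED (SD, n = 2 each). The log2 fold change was -0.47 (SE 0.129, 95% interval -0.76 to -0.17), with an edgeR adjusted p = 0.151 (unadjusted 0.00689), and it stayed between -0.54 and -0.40 over 13 alternatives. The adjusted p over those alternatives ran between 0.0557, by edgeR's exact test, and 0.545.

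Jun encodes c-Jun, the subunit that JNK phosphorylates and that has long been tied to neuronal death and regeneration. It was at 141 and 158 CPM in PELP1 FBKO and at 200 and 183 CPM in FLOXED, from 3108 and 3224 reads in PELP1 FBKO and 3503 and 3962 reads in FLOXED. The genotypes did not overlap. Its log2 fold change was -0.36 (SE 0.135, 95% interval -0.67 to -0.045), with an edgeR adjusted p = 0.262. Jund encodes a constitutive Jun protein that is less dependent on stimulation. Its libraries were at 103 and 90.8 CPM in PELP1 FBKO and at 118 and 101 CPM in FLOXED. PELP1 FBKO 1 lay just above FLOXED 2, so the genotypes overlapped, and the log2 fold change of -0.18 (SE 0.141, 95% interval -0.50 to 0.15) did not pass (edgeR adjusted p = 0.579).

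Among the Fos proteins, Fosl2 showed the clearest separation. Fosl2 encodes Fra-2, a Fos protein that lacks the strong activation domain of c-Fos. It was at 63.1 and 71.5 CPM in PELP1 FBKO and at 76.2 and 94.9 CPM in FLOXED. Its genotypes did not overlap, although PELP1 FBKO 2 and FLOXED 1 were closer to each other than either was to its own partner. Its log2 fold change was -0.35 (SE 0.152, 95% interval -0.70 to 0.0018), with an edgeR adjusted p = 0.322, and it was -0.19 without FLOXED 2. Fosl2, Jun and Junb thus made 3 of 7 tested members whose genotypes did not overlap on the lower side, where 23.0% of all tested genes did not overlap on that side and 48.4% did not overlap in either direction.

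Fos, whose product c-Fos is the usual marker of recently activated neurons, was at 18.4 and 30.8 CPM in PELP1 FBKO and at 26.2 and 32.4 CPM in FLOXED. The genotypes overlapped, since PELP1 FBKO 2 was above FLOXED 1, and library 2 was higher than library 1 in both genotypes. The log2 fold change of -0.26 (SE 0.245, 95% interval -0.82 to 0.31, edgeR adjusted p = 0.656) turned to 0.063 without PELP1 FBKO 1 and was -0.68 without PELP1 FBKO 2. Fosb gives rise to full-length FosB and to the stable splice form delta-FosB, which counts per gene do not separate. It was at 9.61 and 7.89 CPM in PELP1 FBKO and at 5.70 and 10.8 CPM in FLOXED. Both knockout libraries lay inside the range of the FLOXED libraries. Its log2 fold change was 0.078 (SE 0.300, 95% interval -0.61 to 0.77, edgeR adjusted p = 0.931), and without FLOXED 1 it was -0.30, without PELP1 FBKO 1 -0.079 and without FLOXED 2 0.61.

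Fosl1 encodes Fra-1, a Fos protein best known from migrating and transformed cells. It had 0 and 8 reads in PELP1 FBKO and 5 and 15 reads in FLOXED. With so few reads it was left out of the main test, and no difference was detectable at this depth. DESeq2, which kept it, gave a log2 fold change of -1.35 (DESeq2 unadjusted p = 0.363). The 0 reads of PELP1 FBKO 1 allow a level of up to 0.136 CPM. In the RefSeq annotation of GRCm38, Fosl1 overlaps Ccdc85b, so its count is uncertain. No other member overlapped a gene of that annotation.

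Atf3 had the widest range over the libraries. It encodes a stress-inducible member of the ATF/CREB branch that is strongly induced in axotomised neurons. It had 82 and 643 reads in PELP1 FBKO, or 3.72 and 31.5 CPM, against 1296 and 509 reads in FLOXED, or 73.9 and 23.5 CPM. FLOXED 1 was the highest library and PELP1 FBKO 1 the lowest, and between them PELP1 FBKO 2 exceeded FLOXED 2, so the genotypes overlapped. The means were 17.6 ± 19.6 CPM in PELP1 FBKO and 48.7 ± 35.7 CPM in FLOXED (SD, n = 2 each). The log2 fold change of -1.47 had an SE of 0.813 and a 95% interval of -3.34 to 0.41 (edgeR adjusted p = 0.428). It depended on which libraries entered. It was -3.71 without PELP1 FBKO 2, -0.64 without PELP1 FBKO 1, -0.42 without FLOXED 1 and -2.09 without FLOXED 2. In the fits that leave a genotype with 1 library, that library is assumed to vary like the others. Calls in those fits therefore do not measure the spread within that genotype. Among 8 choroid plexus markers, Ttr and Kcne2 were also highest in FLOXED 1 and lowest in PELP1 FBKO 1. Ttr was at 21.4 and 33.9 CPM in PELP1 FBKO and 324 and 67.5 CPM in FLOXED, and Kcne2 had 2 and 7 reads in PELP1 FBKO and 30 and 5 reads in FLOXED. The other markers did not share this order. Folr1, Otx2, Clic6 and Prlr were highest in PELP1 FBKO 2, and Kl and Aqp1 in FLOXED 2. The 7 markers other than Ttr, Kcne2 among them, summed to 35.3 and 36.3 CPM in PELP1 FBKO and 33.2 and 37.1 CPM in FLOXED. This sum was lowest in FLOXED 1, and most of it was Kl, at 25.7 and 18.6 CPM in PELP1 FBKO and 20.5 and 26.3 CPM in FLOXED. The part of Ttr and Kcne2 in the Atf3 values was not tested.

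**Figure D2:**
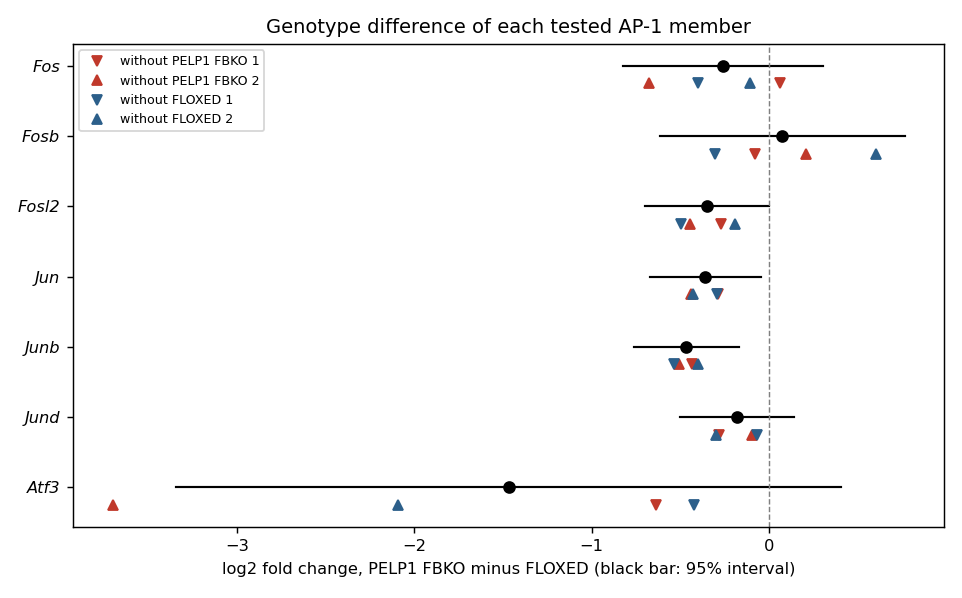
Log2 fold change, PELP1 FBKO minus FLOXED (horizontal axis), of the 7 tested members, with black points for the fit to all 4 libraries, black bars for its 95% interval and triangles for the fits without 1 library. Junb lies between -0.54 and -0.40 in all 4 reduced fits, whereas Atf3 runs between -3.71 and -0.42.

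The spread within genotypes set Atf3 apart from the rest of the family and from most of the transcriptome. Between the 2 PELP1 FBKO libraries, its log2 CPM (with a prior count of 2) differed by 3.05, and only 15 of 14978 tested genes differed by more. Between the 2 FLOXED libraries its log2 CPM differed by 1.65, which 62 genes exceeded. The median difference over all tested genes was 0.16 in PELP1 FBKO and 0.23 in FLOXED. Fosb, at 0.91 in FLOXED, stood above 97.0% of genes, and Fos, at 0.74 in PELP1 FBKO, above 93.8%. Jun and Junb stood below the median of all genes within FLOXED, at 0.13 and 0.15, and Junb also within PELP1 FBKO, at 0.077. The constitutive Jund differed by 0.18 within PELP1 FBKO and by 0.22 within FLOXED, close to the median of all genes.

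Divided by the length of the longest coding transcript, the levels of the members can be set against each other. Jund stood highest, at 58.1 ± 5.12 CPM per kilobase in PELP1 FBKO and 65.7 ± 7.16 in FLOXED (SD, n = 2 each). Next came Jun, at 46.9 ± 3.77 and 60.0 ± 3.77 CPM per kilobase in PELP1 FBKO and FLOXED, and Junb, at 30.8 ± 1.17 and 42.5 ± 3.08. Jund and Jun overlapped between libraries in FLOXED but not in PELP1 FBKO, and Jun and Junb did not overlap in either genotype. The Fos group lay lower on the same scale. Fos had 11.7 ± 4.17 CPM per kilobase in PELP1 FBKO and 13.9 ± 2.08 in FLOXED, and Fosl2 had 10.3 ± 0.913 and 13.1 ± 2.02, so these neighbours did not differ beyond their spread. Fosb was near 2 CPM per kilobase in both genotypes (2.31 ± 0.323 in PELP1 FBKO, 2.18 ± 0.952 in FLOXED), and Fosl1 was below 0.4 in every library. Atf3, at 8.87 ± 9.90 CPM per kilobase in PELP1 FBKO and 24.5 ± 18.0 in FLOXED, had no fixed place in this order, because its libraries spanned the levels of Fosb to Junb.

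Read as shares of the family's summed CPM per kilobase, Jun, Junb and Jund together took 85.6% and 75.6% in PELP1 FBKO and 73.4% and 78.3% in FLOXED. The share of Atf3 was 1.18% and 8.85% in PELP1 FBKO and 15.7% and 5.70% in FLOXED. The order of the libraries by the share of Atf3 was the reverse of their order by the share of the Jun genes. Shares of a common total are tied to each other, so this order says nothing of opposing levels. The summed level of the Jun genes was 135.8 and 135.6 CPM per kilobase in PELP1 FBKO and 173.7 and 162.7 in FLOXED. It was highest in FLOXED 1, as was Atf3. The ratio of the summed Fos group to the summed Jun group was 0.154 and 0.205 in PELP1 FBKO and 0.148 and 0.204 in FLOXED. It was nearly the same in the libraries that carry the same number and did not separate the genotypes. With 2 libraries against 2, an exact permutation test cannot go below p = 0.333, so shares and ratios are given as values. Lengths came from GENCODE vM21, which belongs to a newer build than the mm9 build named for the counts.

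**Figure D3:**
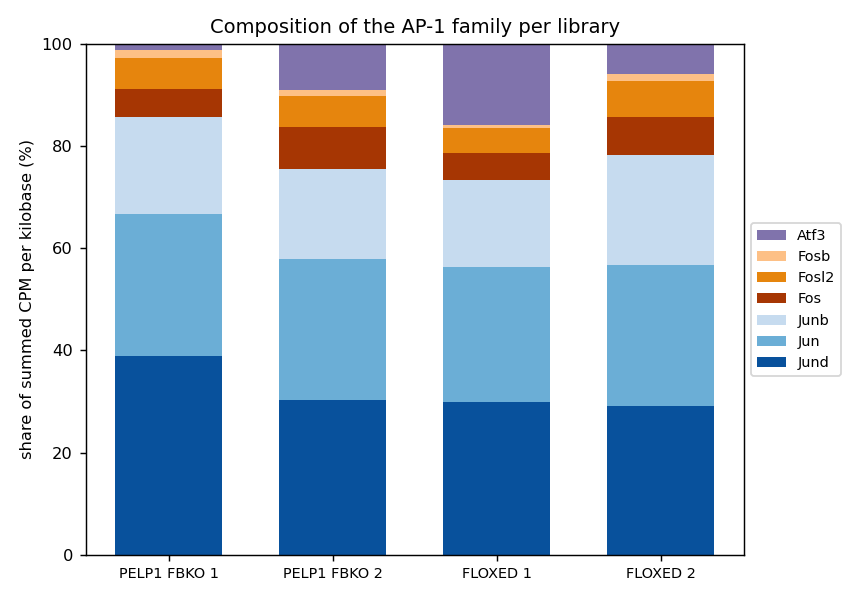
Share of each member in the family's summed CPM per kilobase (vertical axis, percent) in each of the 4 libraries, with Fosl1 too small to draw. Atf3 takes 1.18% in PELP1 FBKO 1 and 15.7% in FLOXED 1, and the 3 Jun genes take between 73.4% and 85.6%.

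The members were next compared by their profile over the 4 libraries, as the Euclidean distance between log2 CPM values after removal of each gene's mean. Values were not scaled to a common range, so the distance counts the size of changes as well as their order. Atf3 ranged over 4.28 log2 units and every other tested member over 0.91 or less. A large distance to Atf3 therefore does not show a different order of libraries. The closest pair was Fosl2 and Junb, at 0.19, followed by Jun and Junb at 0.23, Jun and Jund at 0.31 and Fosl2 and Jun at 0.31. Fosb was 0.72 or more from every other tested member, and Atf3 was 2.69 or more from all of them. Jun and Atf3, which can form a dimer, were 2.79 apart, although both were highest in FLOXED 1 and lowest in PELP1 FBKO 1. Of all tested genes outside the family, the 5 nearest to Atf3 over the 4 libraries were Hspa1b (0.37), Xirp1 (0.46), Lilrb4 (0.55), Hspa1a (0.62) and Htr2b (0.67). Hspa1b, a gene for the inducible heat shock protein HSP70, was at 8.43 and 66.8 CPM in PELP1 FBKO and at 132 and 60.3 CPM in FLOXED. Its near-identical copy Hspa1a was at 7.07 and 43.0 CPM in PELP1 FBKO and at 79.0 and 27.6 CPM in FLOXED, and counts of such a pair are uncertain. Like Atf3, both were highest in FLOXED 1 and lowest in PELP1 FBKO 1. Xirp1, which encodes an actin-binding protein of muscle, had 5 and 66 reads in PELP1 FBKO and 98 and 56 reads in FLOXED. Lilrb4, an inhibitory receptor gene of myeloid cells, had 9 and 81 reads in PELP1 FBKO and 110 and 69 reads in FLOXED. Htr2b, a serotonin receptor gene, had 0 and 14 reads in PELP1 FBKO and 19 and 13 reads in FLOXED. With 0 reads, its value in PELP1 FBKO 1 is set by the prior count of 2. None of the 5 passed the threshold between genotypes (edgeR adjusted p between 0.425 and 0.556).

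**Figure D4:**
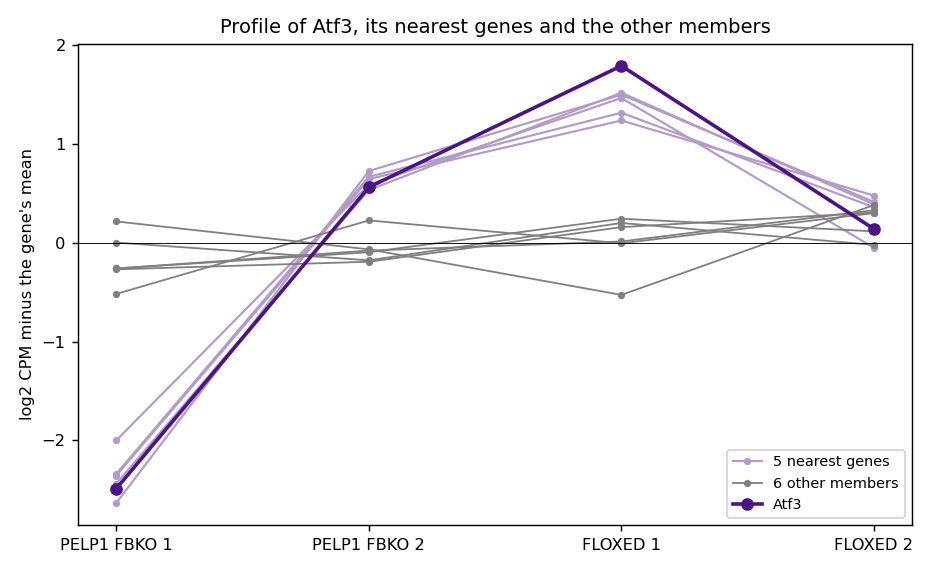
Log2 CPM minus the gene's own mean (vertical axis) in the 4 libraries for Atf3 (dark purple), its 5 nearest genes (light purple) and the 6 other tested members (grey), with lines joining the values of a gene. Atf3 runs between -2.49 in PELP1 FBKO 1 and 1.79 in FLOXED 1, and the grey lines stay within 0.53 of their means.

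Promoter sequences are shown for Fos, Jun, Junb and Atf3, picked after the sequences were seen, whose windows hold an element of the CRE or AP-1 type. The sequences let the Jun-like and Atf3-like profiles be read beside the DNA. Each is the 120 bases before the RefSeq start of the gene in GRCm38.p6, written in the direction of transcription, with the element in capitals. Fos lies on the plus strand (chr12:85473770-85473889), and Jun (chr4:95052223-95052342), Junb (chr8:84978749-84978868) and Atf3 (chr1:191183334-191183453) on the minus strand.
Fos: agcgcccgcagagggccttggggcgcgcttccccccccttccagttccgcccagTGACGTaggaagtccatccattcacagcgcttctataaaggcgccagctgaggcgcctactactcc
Jun: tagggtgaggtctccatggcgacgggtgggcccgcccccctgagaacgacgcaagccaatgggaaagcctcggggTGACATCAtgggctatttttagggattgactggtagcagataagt
Junb: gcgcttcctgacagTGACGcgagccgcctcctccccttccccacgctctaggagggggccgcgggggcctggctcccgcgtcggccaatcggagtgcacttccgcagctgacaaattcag
Atf3: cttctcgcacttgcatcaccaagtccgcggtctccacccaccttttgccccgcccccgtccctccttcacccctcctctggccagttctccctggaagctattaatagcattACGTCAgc

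The capitals mark TGACGT in Fos, TGACATCA in Jun, TGACG in Junb and TGACGT on the reverse strand in Atf3. Between the element and the gene's start lay 60 bases in Fos, 37 in Jun, 101 in Junb and 2 in Atf3. A promoter sequence was found for 7 of the 8 members. Over the 250 bases before the start and on both strands, TGACGT, the core of the CRE to which CREB and ATF proteins bind, was present in Fos and Atf3 and in 6.47% of 32851 mouse promoters. TGACATCA, a variant of the AP-1 site, was present in Jun and in 2.93% of all promoters. TGACG, which TGACGT contains, was present in Fos, Fosb, Junb and Atf3 and in 17.8% of all promoters. The sequence of Fosb is not shown. The consensus AP-1 site TGACTCA (4.46% of all promoters) and the full CRE TGACGTCA (1.55%) were in 0 of the 7. Fos and Atf3 share an element and were 2.69 apart, a distance that reflects the wide range of Atf3 as well as the order of libraries. These are matches of letters, chosen after the sequences were seen, and say nothing of binding.

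Genes around AP-1 were followed through 5 lists of related factors, signals and targets. By edgeR no gene of these lists was called in the fit to all libraries, while DESeq2 called 1 (Cebpb), against 3.08% of all genes tested. Of 26 genes long described as targets of AP-1 or c-Jun, 22 were tested. Of these, 18 had a log2 fold change below 0, as did 50.0% of all tested genes, and the median was -0.40. At an unadjusted p under 0.05, 5 were lower and 1 higher, where 5.55% of all tested genes were lower and 10.1% higher. The lists were written with earlier results of these data known, so their counts carry no test. The 4 with the smallest p were Ccl2, a chemokine gene that draws monocytes (log2 fold change -3.52, edgeR adjusted p = 0.0766), Lif, a cytokine gene of the injured brain (-2.12, 0.128), Plaur, the urokinase receptor gene (-1.51, 0.169), and Ptgs2, which encodes the prostaglandin enzyme COX-2 (-0.77, 0.211). Ccl2 was at 0.181 and 2.01 CPM in PELP1 FBKO, from 4 and 41 reads, and at 10.1 and 14.6 CPM in FLOXED. Lif was at 1.81 and 7.79 CPM in PELP1 FBKO and at 16.2 and 25.1 CPM in FLOXED. Plaur was at 0.816 and 2.40 CPM in PELP1 FBKO and at 4.90 and 4.24 CPM in FLOXED. Ptgs2 was at 26.3 and 42.2 CPM in PELP1 FBKO and at 69.9 and 47.1 CPM in FLOXED. In each of these 4 genes, picked for their small p, the genotypes did not overlap, and PELP1 FBKO 1 was the lowest library. Among all 22 tested targets, 9 were lower in PELP1 FBKO without overlap and 2 were higher without overlap. For comparison, 23.0% of all tested genes were lower with such separation, and 48.4% were separated one way or the other. Of the 22 tested targets PELP1 FBKO 1 was the lowest library in 17 (77.3%), where it was the lowest in 26.1% of all tested genes, and FLOXED 1 was the highest library in 10 (45.5%), against 32.6% of all tested genes. The median of the targets was -0.16 without PELP1 FBKO 1 and -0.96 without PELP1 FBKO 2. Calls moved with these libraries too: edgeR called Ccl2 and Lif lower and Vim higher without PELP1 FBKO 1, where 0.374% of all tested genes were called lower and 2.34% higher. Without PELP1 FBKO 2 it called 10 targets lower and 1 higher, where 2.14% of all tested genes were called lower and 1.84% higher. The exact test in edgeR called Ccl2, Lif and Plaur lower with all 4 libraries. Of all tested genes it called 5.07% in either direction. The 1 higher target was Pdyn, the prodynorphin gene, at 5.62 and 3.28 CPM in PELP1 FBKO and 2.45 and 2.40 CPM in FLOXED (edgeR adjusted p = 0.253).

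**Figure D5:**
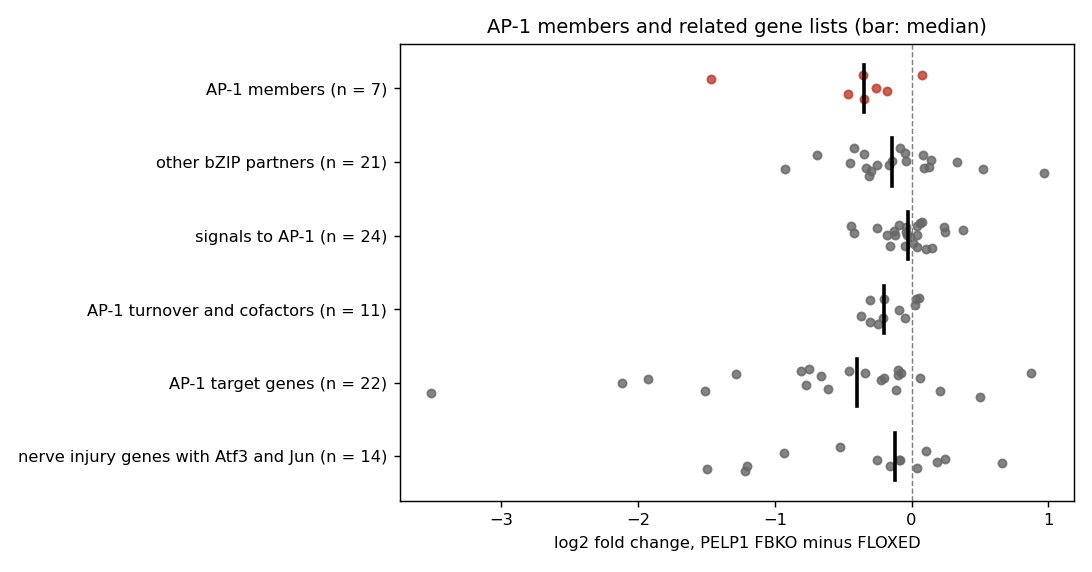
Log2 fold change, PELP1 FBKO minus FLOXED (horizontal axis), of tested AP-1 members (red) and of tested genes in 5 related lists (grey), 1 point a gene, with black bars for list medians. The members' median is -0.35 and that of the AP-1 targets -0.40, while upstream signals centre on -0.025.

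Other bZIP genes, which encode proteins with the same kind of zipper, gave a median of -0.15 over 21 tested of 23. At an unadjusted p under 0.05, 3 were lower (Cebpb, Cebpd and Creb3) and 2 higher (Nfe2l2 and Creb5). Of all tested genes, 5.55% were lower and 10.1% higher at that p. Cebpb, an inflammatory C/EBP factor gene, was at 8.07 and 8.57 CPM in PELP1 FBKO and at 18.0 and 13.6 CPM in FLOXED. Its log2 fold change was -0.92 (SE 0.201, edgeR adjusted p = 0.0983). DESeq2 called it (adjusted p = 0.0227), as did edgeR's exact test (adjusted p = 0.00766), and over the library-omitting fits its edgeR adjusted p lay between 0.0229 without PELP1 FBKO 2 and 0.349 without FLOXED 1. Its relative Cebpd had a log2 fold change of -0.69 (edgeR adjusted p = 0.239) and was called without PELP1 FBKO 2. Nfe2l2, the gene of the antioxidant factor NRF2, had 0.52 and Creb5 had 0.97 (edgeR adjusted p = 0.266 and 0.278). Jdp2, a repressor that pairs with Jun, was at 37.5 and 29.6 CPM in PELP1 FBKO and 43.3 and 39.3 CPM in FLOXED and was named after its values were seen.

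Upstream kinases, scaffolds and transcription factors centred near zero, with a median of -0.025 over 24 tested of 24, 11 above 0 and 13 below. At an unadjusted p under 0.05, 1 was lower and 1 higher, where 5.55% of all tested genes were lower and 10.1% higher. The lower was Srf, the serum response factor that drives Fos transcription, at 69.6 and 64.3 CPM in PELP1 FBKO and at 93.6 and 88.1 CPM in FLOXED. Its genotypes did not overlap, and its log2 fold change of -0.44 (SE 0.127) had an edgeR adjusted p = 0.163. The higher was Rps6ka5, which encodes the histone kinase MSK1, at 0.37 (edgeR adjusted p = 0.311). Map2k3, a kinase gene of the p38 pathway, had -0.42 and Map3k11, a kinase gene above JNK, had 0.24 (edgeR adjusted p = 0.353 and 0.484).

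Proteins that bind, modify or degrade Jun or Fos had a median of -0.20 over 11 tested of 11. Of these, 0 were at an unadjusted p under 0.05 (15.6% of all tested genes), 8 below 0 (50.0%) and 0 called by DESeq2 (3.08%). Among those of smallest p were Fbxw7, a ubiquitin ligase gene for Jun (-0.30), Rfwd2, which encodes the ligase COP1 (-0.30), and Men1, the gene of the JunD partner menin (-0.20), with an edgeR adjusted p between 0.324 and 0.493. Genes induced together with Atf3 and Jun in axotomised neurons had a median of -0.12 over 14 tested of 15. Of these, 2 were lower at an unadjusted p under 0.05, Gal and Tnfrsf12a, and 1 was higher, Adcyap1. Of all tested genes, 5.55% were lower and 10.1% higher at that p. Gal, which encodes the neuropeptide galanin, was at 0.635 and 3.23 CPM in PELP1 FBKO and at 4.62 and 6.18 CPM in FLOXED (log2 fold change -1.50, edgeR adjusted p = 0.269). Adcyap1, the gene of the neuropeptide PACAP, was at 11.6 and 11.2 CPM in PELP1 FBKO and at 5.70 and 8.63 CPM in FLOXED (0.66, edgeR adjusted p = 0.235). Socs3, an inhibitor gene of cytokine signalling, was at 3.81 and 21.4 CPM in PELP1 FBKO and at 25.7 and 32.6 CPM in FLOXED (-1.22, edgeR adjusted p = 0.378). Over these 14 genes PELP1 FBKO 1 was the lowest library in 7 (50.0%), against 26.1% of all tested genes. Without PELP1 FBKO 2 edgeR called 5 of the 14 lower, where it called 2.14% of all tested genes lower.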

How the data were processed

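RNA from 4 hippocampal libraries was sequenced as 50-base single reads, per the labels' protocols. The authors deposited unnormalized counts of reads for each gene symbol. Alignment with TopHat2 2.0.8b to mm9, after CASAVA 1.8.2 and with HTSeq, is named in the submitters' processing notes. The series text names a human build, but the symbols are mouse, and HTSeq settings are not given in the sources used here. HTSeq's 5 summary rows stayed out; reads in no gene made up 14.7% to 15.7% of uniquely placed reads, and ambiguous reads about 1% (0.972% to 1.05%). Alignments that were not unique, 38.5% to 47.7% of each library, were not counted.

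Groups came from the genotype labels. Replicates differed by more than sampling noise (chi-square per degree of freedom 17.4 in PELP1 FBKO and 23.3 in FLOXED, genes with at least 10 reads). The main test was edgeR 4.0.16 (R 4.3.3): TMM, filterByExpr with a minimum count of 10, quasi-likelihood F test, Benjamini-Hochberg adjustment over 14978 genes and a threshold of 0.05. Standard errors came from the F statistic. It was tested on simulated data. Alternatives included DESeq2 1.42.0 and limma 3.58.1. Members, lists and tests were chosen with earlier results of these data known. Genes named are the members, up to 4 genes of smallest p per list, and those needed to spell out a count. Not every gene that this takes is reported here. The 5 genes nearest to the member of widest range were added. Promoters are RefSeq GRCm38.p6.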

Additional observations from a re-analysis of the deposited data

How the results depend on the processing

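In the fit to all libraries 23 genes shared the smallest adjusted p, 0.0501. The counts higher and lower over all genes were 0 and 0 in the fit to all libraries and by limma-voom and with a mean of at least 50 reads. They were 13 and 4 with RLE size factors, 37 and 5 with upper-quartile factors, 278 and 81 without a count filter, 319 and 130 by DESeq2 and 562 and 197 by edgeR's exact test. Leaving out 1 library gave between 0 and 351 higher and between 0 and 320 lower. AP-1 members called lower numbered between 0 and 1 in those fits, the 1 being Atf3, and members called higher 0. Among genes of the 5 related lists, called lower were 1 by DESeq2, 3 without a count filter and 4 by the exact test, and between 0 and 17 when a library was left out, with 0 to 1 called higher. The replicate number as a block gave 387 higher and 179 lower over all genes and 14 genes of the lists lower, with 0 members called. Same-numbered libraries did not deviate together (r = -0.12 across 14978 genes, which are not independent replicates), and nothing in the labels ties them. Crossing the numbers, added after seeing the data, gave 223 higher and 91 lower, 1 member lower and 2 list genes lower. The cause of these moves was not tested.

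Of 104 recomputed fold changes of the members and Pelp1, 98 kept their sign and side of the threshold, 3 passed it (Atf3 in 2, Pelp1 in 1) and 3 reversed: Fos to 0.063 and Fosb to -0.079 without PELP1 FBKO 1, and Fosb to -0.30 without FLOXED 1. Over the fits without 1 library, Fos ran between -0.68 and 0.063 and Fosb between -0.30 and 0.61. Of 208 recomputed list medians, 14 moved by more than the spread between replicates. Fosl1, which is not among the 104, had too few reads for the main test.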
